A study of Mus musculus with 12 samples.

Results

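The regions described here are stretches of open chromatin that were called as peaks in Ly6C-high recruited liver macrophages and in Ly6C-high blood monocytes of mice on a NASH diet, and in no other group of the study. They were chosen by the deposited peak calls themselves: all peaks of the 6 lists that overlapped by at least 1 bp were merged, and a merged region was kept if it held a peak of both Ly6C-high lists and none of the other 4. This left 6169 members of 100354 merged regions, or 6.15%. Being in those 2 lists and in no other is therefore the rule and not a finding, and it carries no test.

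The study measured accessible chromatin by ATAC-seq, in which a transposase cuts open DNA and the cut ends are sequenced, in 12 libraries of sorted myeloid cells from C57BL/6J mice, 2 per group. Mice on a NASH diet gave Cd11b-high Ly6C-high recruited liver macrophages (Ly6CHi-RM), Ly6C-high monocytes sorted from peripheral blood (called blood here), Cd11b-high Ly6C-low recruited liver macrophages (Ly6CLo-RM), F4/80-high Tim4-positive Kupffer cells (KC-N) and F4/80-high Tim4-negative Kupffer cells (KN-RM). Mice on a control diet gave Tim4-positive Kupffer cells only (KC-H). No group carries a genetic change in the labels, which give no age, sex or length of diet and do not say whether a library pools animals. The isolation described in the labels is that of the liver cells, which were perfused, digested with Liberase in the presence of the transcription inhibitor flavopiridol, and sorted; the handling of the blood cells is not given in the sources used here.

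NASH, nonalcoholic steatohepatitis, is fatty liver disease with inflammation and liver cell injury. Ly6C-high monocytes, the classical monocytes of the mouse, leave the bone marrow through the chemokine receptor Ccr2, circulate briefly and enter inflamed tissue, where they give rise to macrophages. In a NASH liver, such cells stand at the entry of a path that leads to Ly6C-low macrophages and to monocyte-derived Kupffer-like cells, while resident Kupffer cells are seeded before birth. Regions far from gene starts are often enhancers, which bind lineage transcription factors such as PU.1, C/EBP and RUNX proteins in monocytes.

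The sequences of 6 promoters show where members lay on genes of the cell types and pathways described below. Each is the RefSeq window of 250 bases before and 50 bases after a gene start in GRCm38.p6 (mm10), written 5′ to 3′ on the strand of the gene, so the start is base 251. Capitals mark the bases that lie inside the merged member region. The windows were picked, after their values were seen, from genes of the monocyte, adhesion, neutrophil and basophil lists and from the genes with the most members. Sgms2, which encodes the sphingomyelin synthase of the plasma membrane, has its window at chr3:131489720-131490019 on the minus strand, and the member covers its first 127 bases.
Sgms2: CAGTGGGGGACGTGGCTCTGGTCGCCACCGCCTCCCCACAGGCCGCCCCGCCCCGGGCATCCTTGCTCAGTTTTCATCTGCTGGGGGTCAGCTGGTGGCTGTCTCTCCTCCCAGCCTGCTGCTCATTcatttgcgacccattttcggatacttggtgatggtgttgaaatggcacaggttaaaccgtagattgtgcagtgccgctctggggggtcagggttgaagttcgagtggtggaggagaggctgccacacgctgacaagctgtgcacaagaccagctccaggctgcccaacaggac
Vcan encodes versican, a matrix proteoglycan made by classical monocytes, and its window is chr13:89742463-89742762 on the minus strand, with 66 bases inside a member.
Vcan: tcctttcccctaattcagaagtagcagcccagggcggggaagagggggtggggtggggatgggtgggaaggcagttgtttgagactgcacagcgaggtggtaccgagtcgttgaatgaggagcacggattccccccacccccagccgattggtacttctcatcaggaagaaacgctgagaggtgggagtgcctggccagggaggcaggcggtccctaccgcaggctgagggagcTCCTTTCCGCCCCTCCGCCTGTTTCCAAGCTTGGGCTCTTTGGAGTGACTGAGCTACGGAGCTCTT
Jaml encodes an adhesion molecule used by leukocytes to cross endothelium and epithelium, and its window is chr9:45078933-45079232 on the plus strand, with 154 bases inside a member.
Jaml: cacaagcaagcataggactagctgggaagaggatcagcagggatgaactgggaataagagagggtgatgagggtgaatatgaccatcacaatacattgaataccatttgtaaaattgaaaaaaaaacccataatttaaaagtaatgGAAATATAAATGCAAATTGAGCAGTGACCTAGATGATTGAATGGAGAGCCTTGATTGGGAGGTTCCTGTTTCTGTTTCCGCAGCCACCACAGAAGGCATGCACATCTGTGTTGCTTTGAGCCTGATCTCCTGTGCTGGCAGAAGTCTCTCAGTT
Padi4 encodes the enzyme that turns histone arginine into citrulline in neutrophils, and its window is chr4:140774154-140774453 on the minus strand, with 213 bases inside a member.
Padi4: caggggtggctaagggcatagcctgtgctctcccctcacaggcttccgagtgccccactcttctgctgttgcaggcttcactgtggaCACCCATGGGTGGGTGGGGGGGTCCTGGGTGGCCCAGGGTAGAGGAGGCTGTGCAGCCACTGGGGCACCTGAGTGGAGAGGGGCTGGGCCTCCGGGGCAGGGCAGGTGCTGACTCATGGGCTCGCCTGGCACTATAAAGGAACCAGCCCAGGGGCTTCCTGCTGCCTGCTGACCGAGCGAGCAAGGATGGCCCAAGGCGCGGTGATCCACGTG
Cxcr2 encodes a receptor for neutrophil-attracting chemokines, and its window is chr1:74153744-74154043 on the plus strand, with 161 bases inside a member.
Cxcr2: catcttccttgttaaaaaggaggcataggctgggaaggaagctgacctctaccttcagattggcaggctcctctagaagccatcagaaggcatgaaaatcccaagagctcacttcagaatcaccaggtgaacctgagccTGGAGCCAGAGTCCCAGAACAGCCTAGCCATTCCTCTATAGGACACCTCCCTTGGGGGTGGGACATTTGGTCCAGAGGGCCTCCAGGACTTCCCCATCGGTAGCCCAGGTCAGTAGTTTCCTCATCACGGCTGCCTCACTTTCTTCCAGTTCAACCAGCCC
Hdc encodes histidine decarboxylase, which makes histamine, and its window is chr2:126618629-126618928 on the minus strand, with 170 bases inside a member.
Hdc: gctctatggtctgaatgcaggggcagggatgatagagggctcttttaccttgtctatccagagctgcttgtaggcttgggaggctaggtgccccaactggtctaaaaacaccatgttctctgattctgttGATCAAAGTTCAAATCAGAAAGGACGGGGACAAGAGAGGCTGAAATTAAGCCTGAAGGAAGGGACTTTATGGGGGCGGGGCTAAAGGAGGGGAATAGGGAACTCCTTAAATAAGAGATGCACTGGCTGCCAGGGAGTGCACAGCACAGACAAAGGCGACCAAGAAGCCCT

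With 1 deposited list per group, made from both libraries, no value per library exists. All results are therefore counts, shares and medians without a test between groups, and each 95% Wilson interval covers counting error only. Ly6CHi-RM had 61492 peaks and blood 69616, against 54621 in Ly6CLo-RM, 34293 in KN-RM, 50550 in KC-N and 63501 in KC-H, so the lists that had to lack a member were not equally long. Peaks at genes of the gate antigens followed the labels only in part. Ly6c2, a gene of the Ly6C antigen, had 5 Ly6CHi-RM peaks, 4 blood peaks, 4 in Ly6CLo-RM, 3 in KN-RM, 3 in KC-N and 3 in KC-H, so it hardly separated the groups. Ccr2, which was not used for a gate, had 6 Ly6CHi-RM peaks, 6 blood peaks, 2 in Ly6CLo-RM, 2 in KN-RM, 4 in KC-N and 3 in KC-H. Timd4, the gene of the Kupffer cell marker Tim4, had 0 Ly6CHi-RM peaks, 0 blood peaks, 1 in Ly6CLo-RM, 0 in KN-RM, 1 in KC-N and 17 in KC-H, so the Tim4-positive gate of KC-N had 1 peak at its own marker gene.

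The lists of Ly6CHi-RM and blood shared more regions of their own than any other 2 lists. Among the 15 pairs of lists, the regions held by a pair and no further list numbered 6169 for Ly6CHi-RM and blood, 3648 for KC-N and KC-H, 1683 for blood and KC-H, and 1354 for Ly6CHi-RM and Ly6CLo-RM. Members made up 10.0% of the Ly6CHi-RM list and 8.86% of the blood list. Both lists together held 54672 common regions, of which 11.3% were members and 79.1% were also in Ly6CLo-RM, 52.0% in KN-RM, 66.6% in KC-N and 72.9% in KC-H. Most open chromatin that the 2 Ly6C-high groups had in common was thus also called in the Ly6C-low recruited macrophages.

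**Figure D1:**
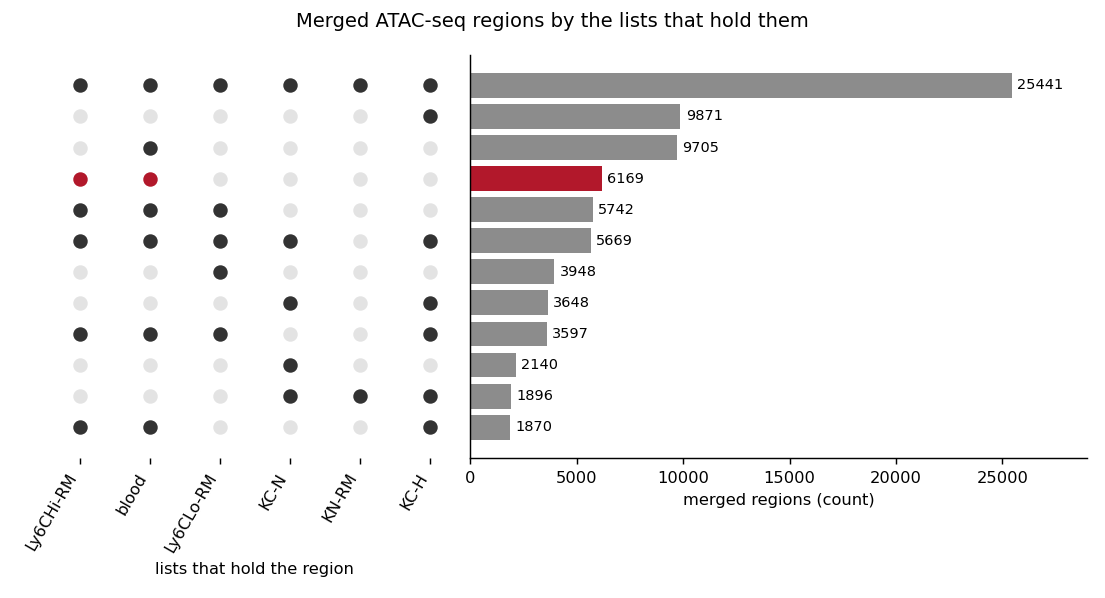
Count of merged regions (bars) for the 12 most frequent combinations of the 6 lists; filled dots show which lists hold the region and the members are in red. The members, 6169 regions, are the fourth most frequent combination, after 25441 regions of all 6 lists, 9871 of KC-H only and 9705 of blood only.

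Every member consisted of exactly 1 Ly6CHi-RM peak and 1 blood peak, and the peaks lay almost on top of each other. Peaks are 200 bp wide in the lists, and the 2 peaks of a member overlapped by a median of 190 bp (3 to 200), with a median distance of 10 bp between centres. Ly6CLo-RM decided the number of members most. Without its list, 11923 regions would meet the rule, against 6634 without KC-N, 6232 without KN-RM and 8053 without KC-H, alternatives added after the data were seen.

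Members were mostly weak peaks. The authors gave each peak a tag count, scaled in a way not given in the sources used here, which ranks peaks within a list but does not compare lists. Members had a median tag count of 24.0 in Ly6CHi-RM (quartiles 20.3 to 30.7, range 17.2 to 283.9) and of 34.9 in blood (quartiles 25.7 to 49.0, range 17.9 to 371.1). The median of all peaks was 46.4 in Ly6CHi-RM and 50.0 in blood. Of the 6169 members, 321 (5.20%) were in the better-scored 50% of both lists and 4646 (75.3%) of neither. Regions also held by Ly6CLo-RM, and by no further list, had medians of 34.9 in Ly6CHi-RM and 45.1 in blood, and regions of all 6 lists had 110.4 in Ly6CHi-RM and 123.7 in blood.

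**Figure D2:**
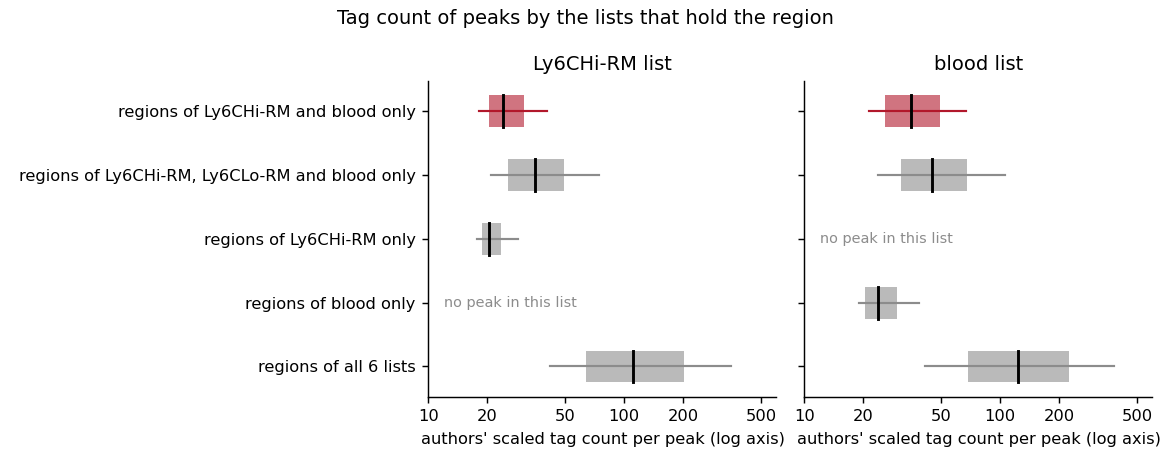
Scaled tag count per peak on a log axis in the Ly6CHi-RM list (left) and the blood list (right), for members (red) and for regions of other combinations of lists; black lines are medians, boxes are quartiles and thin lines run from the 10th to the 90th percentile. Members have medians of 24.0 in Ly6CHi-RM and 34.9 in blood, above regions of 1 list only (20.3 in Ly6CHi-RM only, 23.8 in blood only) and below regions of all 6 lists (110.4 in Ly6CHi-RM and 123.7 in blood).

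The share of members fell with every step of score rank. Common regions of both lists were sorted into 10 classes by the worse of their 2 percentile ranks, the ranks coming from the lists the rule uses. Members were 41.4% (40.1 to 42.7) of the lowest class, 6.55% (5.93 to 7.23) of the fifth and 0.0191% (0.00336 to 0.108), or 1 region, of the highest. The share also held by Ly6CLo-RM was 36.4% in the lowest class and 99.8% in the highest. The lists hold called peaks only, so whether the other 4 groups had accessibility below the call threshold at members was not tested.

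**Figure D3:**
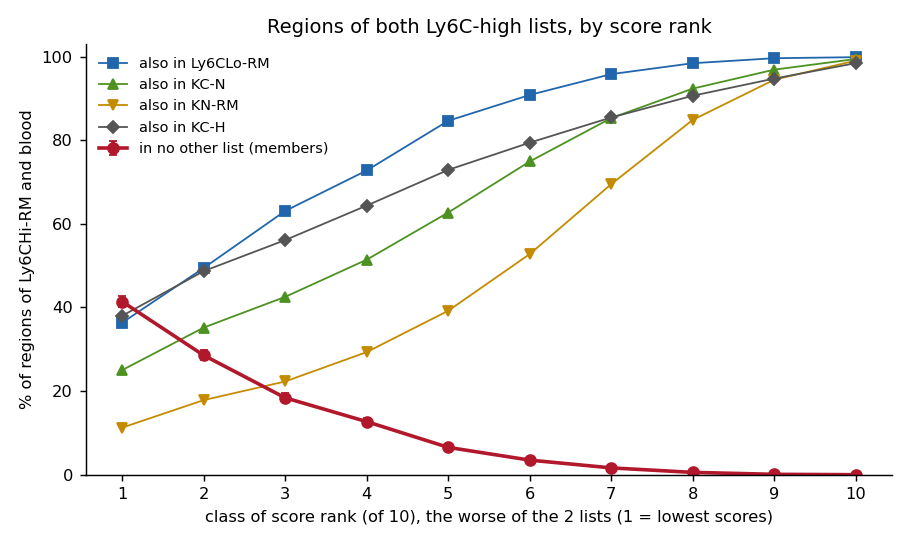
Percent of the regions common to Ly6CHi-RM and blood that were in no other list (members, red, with 95% Wilson intervals) or also in each of the other 4 lists, by class of score rank (1 lowest, 10 highest). Members decline from 41.4% in the lowest class to 0.0191% in the highest, while the share also in KN-RM, the shortest list, is 11.3% in the lowest and 99.0% in the highest.

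Members lay away from gene ends. Of the members, 8.51% (7.84 to 9.23) had a protein-coding gene starting or ending within 1 kb of their centre, against 8.76% (8.06 to 9.52) of the regions that also had a Ly6CLo-RM peak, 40.4% (39.8 to 41.0) of the regions of all 6 lists and 21.9% of all merged regions. The gene table used has starts and ends of genes without exons, so a gene end here is either a start or a 3′ end. Members had a median distance of 13143 bp to the nearest gene end, against 2625 bp for regions of all 6 lists. Inside a protein-coding gene lay 52.5% (51.3 to 53.7) of members and 56.8% of all merged regions, and 378 members (6.13%) had no gene within 100 kb. The share near gene ends was 11.8% when members were drawn from the better-scored 50% of every list.

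Most members stood alone rather than on the shoulder of a peak of another group. The centre of a peak of the other 4 lists lay within 1000 bp for 993 members (16.1%, 15.2 to 17.0) and not for 5176 (83.9%). Ly6CLo-RM supplied such a neighbour for 822 members, KC-N for 605, KN-RM for 405 and KC-H for 649, and 345 members had one from all 4. The median distance to the nearest such centre was 5111 bp. At the margin of the rule, 25 members had the edge of another list's peak under 25 bp away, and 4 of them touched it with a gap of 0 bp. The strongest of those 4 lay near Cyp8b1, the gene of the enzyme that sets the balance of bile acids (chr9:121919295-121919507; tag counts 60.4 in Ly6CHi-RM and 67.4 in blood). Just outside it, a region of both lists near Fcho1, at chr8:71707775-71708173, was left out for an overlap of 6 bp with a KC-H peak.

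Each member was assigned to the protein-coding gene that contains its centre, or else to the nearest within 100 kb, which is a statement of position and not of regulation. Of 21900 genes, 3880 (17.7%) received at least 1 member, and members were 6.07% (5.92 to 6.23) of the 95372 merged regions with a gene. Some neighbourhoods held several: with gaps of up to 50 kb joined, 1797 members (29.1%) lay in 475 clusters of 3 or more. The same share for other regions is not given here, so clustering is not shown to be particular to members. The cluster with the most members, assigned to Bdkrb2, which encodes a bradykinin receptor, and D430019H16Rik on chromosome 12, held 10 members among 17 merged regions in 157.7 kb. A cluster at Nnmt and Zbtb16 on chromosome 9 held 7 members among 9 regions. Zbtb16 encodes PLZF, a transcription factor of progenitors and innate lymphocytes.

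Genes of classical monocytes held a larger share of members than genes at large. The list of 20 such genes held 19 members at 11 genes, or 13.6% (8.86 to 20.2) of 140 regions, against 6.07% over all genes. These genes also held 14 regions of Ly6CHi-RM, blood and Ly6CLo-RM only, a class with 5409 of 95372 regions over all genes. Members were 57.6% (40.8 to 72.8) of both classes together, against 51.7% over all genes, a share inside that interval. The larger share is thus not shown to be particular to members. F13a1, which encodes the A chain of coagulation factor XIII and marks classical monocytes, held 5 members of 14 regions, with 11 Ly6CHi-RM peaks, 11 blood peaks, 6 in Ly6CLo-RM, 2 in KN-RM, 2 in KC-N and 0 in KC-H. Its members had tag counts of 20.3 to 28.1 in Ly6CHi-RM and 26.2 to 50.9 in blood. Of the 5, 4 lay outside the gene, 61719 to 80600 bp from the nearer of its start and 3′ end. Chil3, which encodes the chitinase-like protein Ym1 and is abundant in Ly6C-high monocytes, had its only 2 regions as members. Their tag counts were 32.3 and 32.3 in Ly6CHi-RM and 70.8 and 60.2 in blood, and the nearest peak centre of another list was 49050 bp away from the closer of them.

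The other monocyte markers showed fewer members beside regions shared with other groups. Fn1, the gene of the adhesive matrix protein fibronectin, held 3 members of 10 regions. The strongest, at chr1:71652711-71652916, lay inside the gene, 467 bp from the nearer of its start and 3′ end. It had 74.5 tags in Ly6CHi-RM and 120.8 in blood, with a centre of another list 467 bp away. The member at the start of Vcan (chr13:89742289-89742528) had 40.6 tags in Ly6CHi-RM and 103.8 in blood, and it was 1 of 9 regions at the gene. Ccr2 held 1 of 7, with 24.5 tags in Ly6CHi-RM and 27.2 in blood. Ly6c2, the gene of the antigen used for the gate, held 1 of 6, with 41.2 tags in Ly6CHi-RM and 30.1 in blood. Over the better-scored 50% of every list, the monocyte genes held 18 members among 73 regions, or 24.7%, while all genes stood at 6.03%. Counting only members with no centre of another list within 1000 bp, they held 12, or 8.57% (4.97 to 14.4), against 5.08% over all genes, a share inside that interval.

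Genes of neutrophils and their granules also held members, in 2 groups that the labels call recruited macrophages and monocytes. Their 20 genes held 14 members at 10 genes, or 22.2% (13.7 to 33.9) of 63 regions, against 6.07% over all genes. They had 0 regions held by Ly6CHi-RM, blood and Ly6CLo-RM only, a class that was also small over all genes, with 5409 of 95372 regions. Padi4 held 3 members of 5 regions, with 4 Ly6CHi-RM peaks, 5 blood peaks, 0 in Ly6CLo-RM, 0 in KN-RM, 0 in KC-N and 1 in KC-H. Its strongest member, inside the gene at chr4:140771204-140771408, had 44.8 tags in Ly6CHi-RM and 121.3 in blood. Fcnb, the gene of ficolin-B, a pattern-recognition lectin of myeloid precursors, had a member as its only region, with 39.1 tags in Ly6CHi-RM and 152.8 in blood. Cxcr2 held 2 members of 3 regions, and the one at its start had 20.8 tags in Ly6CHi-RM and 22.3 in blood. Csf3r, the G-CSF receptor, held 2 of 10, and Mpo, the myeloperoxidase of granules, held 1 of 3.

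The neutrophil share changed with the cut on score. The whole list had 47 Ly6CHi-RM peaks and 53 blood peaks, against 24 in Ly6CLo-RM, 15 in KN-RM, 26 in KC-N and 34 in KC-H. Of its genes, 16 had a peak in Ly6CHi-RM and 16 in blood, against 6 in KN-RM and 10 in each of the remaining lists. Ly6g, the defining surface marker of neutrophils, had no peak in any list, and neither had the granule genes Elane, Camp and Ngp. S100a8, an abundant transcript of both neutrophils and monocytes, held 0 members and had 1 peak in Ly6CHi-RM, 2 in blood, 0 in Ly6CLo-RM, 0 in KN-RM, 1 in KC-N and 1 in KC-H. With the better-scored 50% of every list, 2 of 27 regions (7.41%) were members, against 6.03% over all genes. The part of neutrophils in these counts was not tested.

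Factors of blood progenitors held 30 members at 9 of 18 genes, 10.1% (7.14 to 14.0) of 298 regions, against 6.07% over all genes. With lists of equal length they held 6 of 147, or 4.08% (1.88 to 8.62), against 3.69% over all genes, so the difference was not present there. The same genes held 36 regions of Ly6CHi-RM, blood and Ly6CLo-RM only. Members were 45.5% (34.0 to 57.4) of both classes together, against 51.7% over all genes, a share inside that interval. A larger share at these genes is thus not particular to members. Runx1, a transcription factor that founds blood formation and acts with PU.1 in myeloid cells, held 9 of 54 regions. The strongest, inside the gene at chr16:92612558-92612782, had 108.3 tags in Ly6CHi-RM and 128.6 in blood, and the nearest centre of another list was 2892 bp away. Myb, which sustains progenitor proliferation, held 5 of 11 regions, with 7 Ly6CHi-RM peaks and 10 blood peaks, against 3 in Ly6CLo-RM, 0 in KN-RM, 1 in KC-N and 1 in KC-H. Its members had 18.8 to 31.8 tags in Ly6CHi-RM and 24.3 to 43.7 in blood. Flt3, a growth factor receptor of progenitors and dendritic cell precursors, held 3 of 15. Runx2, best known from bone, held 4 of 33.

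The myeloid transcription factors themselves held a smaller share. Their 19 genes held 10 members among 514 regions, 1.95% (1.06 to 3.54), against 6.07% over all genes. With lists of equal length the share was 1.95% (0.896 to 4.18) against 3.69% over all genes, which lies inside that interval. Spi1, which encodes PU.1, held 0 of 19 regions, Irf8 held 0 of 40 and Klf4 held 0 of 23. Cebpa, whose product drives granulocyte and monocyte commitment, held 2 of 17, Cebpb, needed for Ly6C-low monocytes, held 2 of 63, and Cebpd held 1 of 7. The member at Cebpb nearest to the gene, 13588 bp away, had 37.5 tags in Ly6CHi-RM and 33.0 in blood.

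The chemokine receptor list held a larger share of members than the lists of signalling genes. Chemokine and related receptors held 18 members at 9 of 14 genes, 9.94% (6.38 to 15.2) of 181 regions. Members with no centre of another list within 1000 bp were 7.73% (4.66 to 12.6), against 5.08% over all genes. With the better-scored 50% of every list the share was 10.0% (5.52 to 17.4), against 6.03%. Both intervals include the share of all genes. With lists of equal length it was 8.18% (4.36 to 14.8), against 3.69%, which lies below that interval. Cxcr4, which retains monocytes in the bone marrow, held 5 of 29 regions, with 17.7 to 31.8 tags in Ly6CHi-RM and 21.3 to 58.7 in blood. Adhesion and homing genes held 16 of 236, 6.78% (4.22 to 10.7), close to the 6.07% of all genes. Among them Jaml held 2 of 6, with 4 Ly6CHi-RM peaks and 5 blood peaks against 2 in Ly6CLo-RM, 0 in KN-RM, 0 in KC-N and 1 in KC-H. Itga4, a chain of the integrin VLA-4 that binds inflamed endothelium, held 0 of 17. Actin and migration genes held 19 of 332, 5.72% (3.69 to 8.76), also near the share of all genes. Toll-like receptor and NF-kB genes held 12 of 311 (3.86%, 2.22 to 6.62), cytokine receptors 9 of 288 (3.13%, 1.65 to 5.83), early response genes 9 of 376 (2.39%, 1.26 to 4.49) and interferon-stimulated genes 2 of 65 (3.08%, 0.848 to 10.5).

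Metabolic genes included 1 of the strongest members of all. Glycolysis and hypoxia genes held 17 members at 9 of 18 genes, 7.42% (4.69 to 11.6) of 229 regions, near the 6.07% of all genes, which lies inside that interval. Pfkfb4, which encodes an enzyme that sets the level of the glycolytic activator fructose 2,6-bisphosphate, held 4 of 16. Its strongest, inside the gene at chr9:109009709-109009911, had 103.7 tags in Ly6CHi-RM and 220.2 in blood, with the nearest centre of another list 4110 bp away. Slc2a3, the glucose transporter GLUT3 of white blood cells, held 3 of 15, with 18.8 to 24.5 tags in Ly6CHi-RM and 24.3 to 40.3 in blood.

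**Figure D4:**
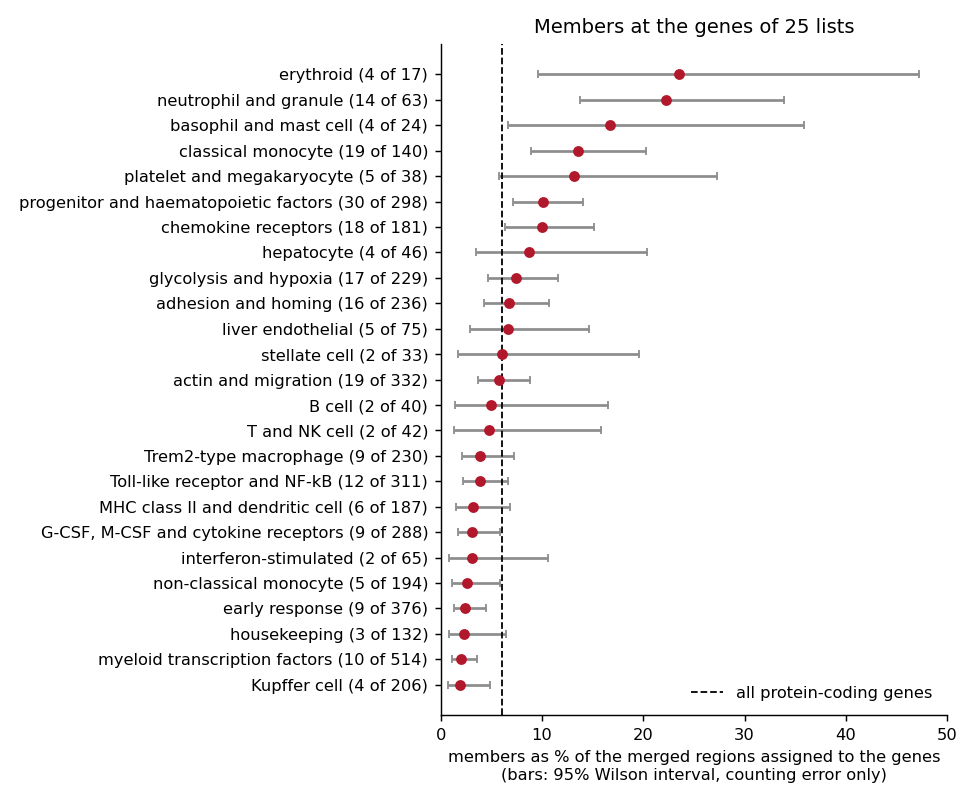
Members as percent of the merged regions assigned to the genes of 25 lists (points) with 95% Wilson intervals (bars, counting error only) and the share over all protein-coding genes (dashed line, 6.07%). The classical monocyte list (13.6%) and the neutrophil list (22.2%) lie to the right of the line with their whole interval, as do the erythroid (23.5%), basophil and mast cell (16.7%), progenitor (10.1%) and chemokine receptor (9.94%) lists. The Kupffer cell (1.94%), myeloid transcription factor (1.95%), early response (2.39%), non-classical monocyte (2.58%) and cytokine receptor (3.13%) lists lie to the left with their whole interval. Regions of all 6 lists are counted, so genes with many peaks of the other groups, such as the Kupffer cell list, have a lower share by construction.

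Genes of Kupffer cells held few members, 4 among 206 regions, or 1.94% (0.758 to 4.89) against 6.07% over all genes. The regions counted are those of all 6 lists, and these genes had 195 KC-H peaks but 44 Ly6CHi-RM and 53 blood peaks. Their low share is thus in part built into the count. Beside Ly6CHi-RM peaks alone, they had 4 members to 44 peaks, and all genes had 5791 members to 58941 peaks, so no clear deficit remains. Clec4f, the lectin that defines Kupffer cells, and Timd4 held 0, and Cd5l, a secreted scavenger protein of Kupffer cells, held 1 of 26 with 17.2 tags in Ly6CHi-RM and 30.1 in blood. Genes of the Trem2-type macrophages that accumulate in fatty liver held 9 of 230, 3.91% (2.07 to 7.27), of which Gpnmb and Spp1 held 3 each, and Trem2 held 0 of 4. Non-classical monocyte genes held 5 of 194, 2.58% (1.11 to 5.89). Of these, Cx3cr1, the fractalkine receptor, held 2 of 9 and Nr4a1, the nuclear receptor that Ly6C-low monocytes need, held 0 of 20. Genes of antigen presentation and dendritic cells held 6 of 187, 3.21% (1.48 to 6.82), and H2-Ab1 held 0 of 18. The intervals of the Trem2-type and antigen presentation lists include the 6.07% of all genes.

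The basophil and mast cell, platelet and erythroid lists held members at shares like those of the monocyte and neutrophil lists, on few regions, while the T and NK cell and B cell lists did not. The basophil and mast cell list held 4 members among 24 regions, 16.7% (6.68 to 35.9), against 6.07% over all genes. All 4 lay at Hdc, which had 8 Ly6CHi-RM peaks and 7 blood peaks, against 4 in Ly6CLo-RM and 2 each in KC-N, KN-RM and KC-H. Its defining companions Mcpt8 and Fcer1a had no peak in any list. The platelet list held 5 among 38 regions, 13.2% (5.75 to 27.3), an interval that includes the share of all genes. All 5 lay at Itgb3, an integrin chain of platelets and macrophages, while Ppbp and Gp1ba had no peak. Itgb3 had 10 Ly6CHi-RM peaks, 9 blood peaks, 6 in Ly6CLo-RM and 0 in each of KC-N, KN-RM and KC-H. The erythroid list had the highest share of the 25 lists, 4 of 17 regions or 23.5% (9.56 to 47.3), of which 2 lay at Tal1, a factor of blood stem cells and the red cell lineage, while Alas2 and Slc4a1 had no peak. With the better-scored 50% of every list the erythroid list held 0 of 8. Counting only members with no centre of another list within 1000 bp, it held 2 of 17 (11.8%, 3.29 to 34.3), against 5.08% over all genes, a share inside that interval. The part of these cells in the counts was not tested. T and NK cell genes held 2 of 42 and B cell genes 2 of 40. The T cell gene Cd3e had a member as its only region, with 19.8 tags in Ly6CHi-RM and 23.8 in blood. Tcf7 held 1 of 5, while Cd8a had no peak in any list. Hepatocyte genes held 4 of 46, endothelial genes 5 of 75, stellate cell genes 2 of 33 and housekeeping genes 3 of 132, and the intervals of these 6 lists include the share of all genes. Alb, the albumin gene, held 0 members and had 0 Ly6CHi-RM peaks but 11 blood peaks, against 1 in each Tim4-positive Kupffer cell list and 0 in Ly6CLo-RM and KN-RM.

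The genes with the most members were not markers of a cell type for the most part. Smyd3, a lysine methyltransferase, and Foxp1, a forkhead factor of lymphoid and myeloid development, held 10 each, of 30 and 76 regions. Runx1 and Jazf1, a zinc-finger protein, held 9 each, and 8 each lay at Sgms2, Prkce, Pde4d, Arntl and Asap1. Prkce encodes a protein kinase C, Pde4d a phosphodiesterase that degrades cyclic AMP, Arntl the clock factor BMAL1 and Asap1 a regulator of Arf GTPases. Tiam1, an activator of Rac, Lrch1, and Peli2, a ubiquitin ligase of Toll-like and interleukin-1 receptor signalling, held 7 each. A gene with many regions can collect many members, and the share differed: 7 of 13 regions at Peli2 and 8 of 23 at Sgms2 were members, against 8 of 61 at Asap1.

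Sgms2 and Peli2 showed the same outline. Sgms2 had 17 Ly6CHi-RM peaks and 22 blood peaks, against 8 in Ly6CLo-RM, 0 in KN-RM, 1 in KC-N and 0 in KC-H. Its strongest member covers the upstream bases printed above (chr3:131489892-131490103) with 101.1 tags in Ly6CHi-RM and 242.1 in blood, and a centre of another list lay 354 bp away. Peli2 had 10 Ly6CHi-RM peaks and 13 blood peaks, against 3 in Ly6CLo-RM, 2 in KN-RM, 4 in KC-N and 0 in KC-H. Its strongest member, inside the gene at chr14:48131326-48131530, had 62.5 tags in Ly6CHi-RM and 104.3 in blood. At Arntl, 8 of 21 regions were members, and the strongest, 93348 bp outside the gene, had 69.3 tags in Ly6CHi-RM and 87.3 in blood.

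**Figure D5:**
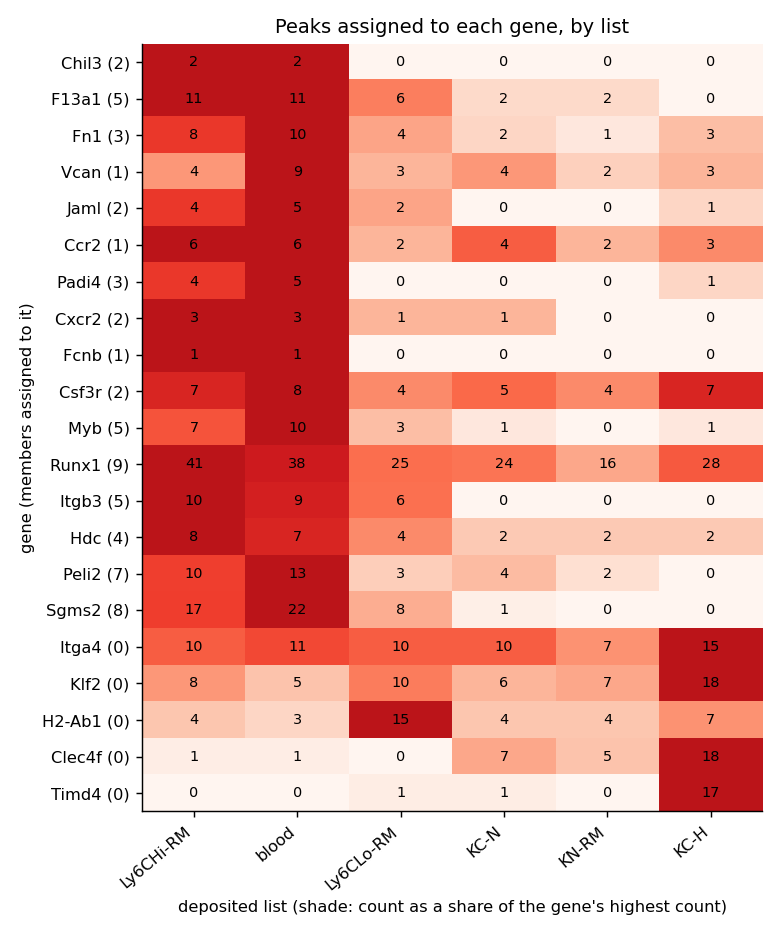
Number of peaks assigned to each of 21 named genes in each list, with the gene's members in brackets and shade showing the count as a share of the gene's highest. Chil3, Fcnb and Padi4 have 0 or 1 peaks outside Ly6CHi-RM and blood, whereas Timd4 and Clec4f have 17 and 18 in KC-H.

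The members at the very top of the ranking sat beside peaks of the other groups, but most strong members did not. Of the 321 members in the better-scored part of both lists, 278 had no centre of another list within 1000 bp. Among all 6169 members, 5176 had none. The highest rank belonged to a region 300 bp from Birc6, an inhibitor of apoptosis, with 283.9 tags in Ly6CHi-RM and 371.1 in blood, and all of the other 4 lists had a centre within 424 bp. The next, near Clp1, a kinase of RNA processing, had 239.1 tags in Ly6CHi-RM and 167.4 in blood, with another centre 290 bp away. At Ilrun, a regulator of inflammation, the values were 157.8 in Ly6CHi-RM and 172.2 in blood, with another centre 240 bp away.

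Among members with no centre of another list within 1000 bp, the highest lay 4879 bp from Cd2, an adhesion receptor of lymphocytes, at chr3:101270923-101271136. It had 130.2 tags in Ly6CHi-RM and 116.9 in blood, and the nearest other centre was 3941 bp away. A region inside Slc6a19, a transporter of neutral amino acids, had 129.7 tags in Ly6CHi-RM and 162.0 in blood. One near Xrcc4, a DNA repair factor, had 113.6 in Ly6CHi-RM and 240.1 in blood, and one near Dzank1 had 114.6 in Ly6CHi-RM and 159.1 in blood. The regions inside Runx1 and Pfkfb4 described above came next. Acsl1, which activates long-chain fatty acids and is induced in inflammatory macrophages, held one inside the gene with 76.6 tags in Ly6CHi-RM and 159.6 in blood. Others lay near Kcnj2, a potassium channel (102.1 in Ly6CHi-RM and 98.0 in blood), and inside Tanc1 (87.5 in Ly6CHi-RM and 128.1 in blood). One, at chr2:117925532-117925749, had no gene within 100 kb, with 95.8 tags in Ly6CHi-RM and 174.2 in blood.

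Across the 6169 members, the log2 tag counts of the 2 peaks had a Pearson r of 0.54 and a Spearman rho of 0.44, a description over regions that share the 2 lists and their thresholds.

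Members overlapped few promoters. Of 32851 RefSeq promoter windows, 210 (0.639%) from 180 genes overlapped a member. By rank, the first of these were Birc6, Ilrun, Sgms2, Slpi, Maz, Gm51503, Slc6a19 and Nif3l1. Slpi encodes a protease inhibitor made by neutrophils, macrophages and epithelium, and its member had 95.3 tags in Ly6CHi-RM and 95.1 in blood, with the nearest other centre 3498 bp away. At the starts printed above, the member of Hdc had 21.9 tags in Ly6CHi-RM and 43.2 in blood, that of Jaml 18.8 in Ly6CHi-RM and 31.5 in blood, and that of Padi4 25.0 in Ly6CHi-RM and 20.4 in blood.

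The windows that members overlapped differed in base composition from those of regions shared by all. Their median GC content was 54.7% (quartiles 47.7 to 63.9), against 62.3% (56.3 to 68.0) for the 9207 windows with a region of all 6 lists and 52.7% for all windows. The GC box, GGGCGG on either strand, was in 38.1% (31.8 to 44.8) of the windows with a member, in 69.6% (68.7 to 70.6) of those with a region of all 6 lists and in 35.7% of all windows. The C/EBP letters TTGCNNAA were in 12.4% (8.59 to 17.5) of the windows with a member and 10.8% of all windows. The PU.1 letters GAGGAAGT were in 4.29% (2.27 to 7.94) of the windows with a member and 3.20% of all windows, and the RUNX letters TGTGGTT in 2.86% (1.32 to 6.09) of the windows with a member and 5.27% of all windows. Windows with a region that Ly6CLo-RM also held had 8.81% (5.78 to 13.2) for PU.1 and 8.81% (5.78 to 13.2) for RUNX. The intervals for C/EBP, PU.1 and RUNX in windows with a member include the share of all windows, so no difference was detectable at this number of windows. The AP-1 letters TGANTCA were in 9.52% (6.25 to 14.3) of the windows with a member and 7.81% of all windows. Their narrower spelling TGACTCA was in 9.05% (5.87 to 13.7) of the windows with a member and 5.20% of all windows, a share below that interval. Windows with no region had 6.08%, inside it. The 210 windows overlap 173 members, and several windows of 1 gene can cover nearly the same bases. The intervals count such windows as separate and are therefore too narrow, so no AP-1 difference is read from them. Most members lie outside these windows.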

How the data were processed

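The 6 peak lists were used as deposited, 1 per group and named for the irreproducible discovery rate, so each comes from both libraries. Per the submitters' processing notes, Bowtie2, HOMER and DESeq2 were used, with mm10 (GRCm38); the sources used here give no roles, thresholds, read depth or transposase shift. Each peak of a deposited list has a scaled tag count (a signal) and a whole-number score, whose meaning is not stated. Both are the authors' values and only rank peaks within a list. Coordinates are those of the lists. Peaks overlapping by 1 bp were merged. Percentile ranks used the score. Gene positions are those of RefSeq on GRCm38.p6, without exons. The 25 gene lists, the members and the rules were chosen with earlier results of these data known; Amica1, Mx1, Trac and Ighm were not matched. Genes named are the 12 with the most members, up to 4 per list, 30 fixed genes, the 10 strongest members, the 10 strongest isolated ones and 8 promoters; the text gives a part of them, and results of a few genes are not reported here. Merging and gene assignment were tested on simulated lists. Work was done in Python 3.11.15 (pandas 2.3.3, numpy 2.4.6, matplotlib 3.10.9).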

Additional observations from a re-analysis of the deposited data

How the results depend on the processing

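No paired analysis was possible because each deposited list is made from both libraries of its group and no value per library exists, and for the same reason no replicate could be left out. The 6169 member regions became 3009 with the better-scored 50% of every list, 321 with the better-scored 50% of the Ly6CHi-RM and blood lists only, 2118 with lists of equal length and 11923 without the Ly6CLo-RM list, the last chosen after the data were seen. Under the first 3 of these alternatives in the same order, members were 6.09%, 0.380% and 3.73% of merged regions, genes with a member numbered 2200, 272 and 1594, members in clusters 461, 18 and 226, members at the listed genes 110, 10 and 74 (against 213), and the share near gene ends was 11.8%, 9.97% and 9.96%. Isolated members were 5.16% of merged regions, and 5.93% of them lay near gene ends. The share near gene ends was 5.03% within 500 bp and 17.4% within 2500 bp of a gene end. Joining gaps of 25 or 100 kb put 970 or 2883 members in clusters. An overlap of 50% of the shorter peak gave 6258 members and requiring no other centre within 1000 bp gave 5176. Of the values for single gene lists and motifs, 89 moved and 121 did not. The cause was not tested. A list says that a peak was not called, not that chromatin was closed, and depth behind the calls is unknown.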

Other observations

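In total, 299 protein-coding genes (1.37% of 21900) held at least 1 member and no peak of the other 4 lists, Chil3 and Fcnb among them, and 49 of these held at least 2 members. The following further genes were chosen after their values were seen. H60c, which encodes a ligand of the NK cell receptor NKG2D, had 4 Ly6CHi-RM peaks and 5 blood peaks, and 4 of its 5 regions were members. Dio2, the deiodinase that activates thyroid hormone, had 4 Ly6CHi-RM peaks and 7 blood peaks, with 4 members, and Kank1, an organizer of the cell cortex, had 4 Ly6CHi-RM peaks and 6 blood peaks, with 4 members. Cldn15, a tight-junction protein, had 3 Ly6CHi-RM peaks and 3 blood peaks, which made its 3 members. Rxrg, a retinoid X receptor, had 3 Ly6CHi-RM peaks and 4 blood peaks, with 3 members. None of these 5 genes had a peak in Ly6CLo-RM, KC-N, KN-RM or KC-H.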
